A study of Homo sapiens with 8 samples.

Results

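MEPCE was knocked down in U2OS AsiSI cells that had been given 4-hydroxytamoxifen (4-OHT), and RNA levels were compared with those after a control siRNA in the same cells. The libraries were taken by their labels: 2 libraries of AsiSI siMePCE stood against 2 of AsiSI siNC, 4 of the 8 libraries in the study, and it was read over the 43321 genes, of 80311 counted, that passed a filter on low counts. U2OS is a human osteosarcoma line. The derivative used here is labelled AsiSI, and AiD-DiVA AsiSI-ER in the study's growth protocol. Both groups received siRNA (siNC or siMePCE) at 0 and 48 h and 300 nM 4-OHT for the 4 h before lysis at 96 h. Both sides of the comparison thus received 4-OHT, and AsiSI cells without 4-OHT form no group. The other 4 libraries, Flp-In siNC and Flp-In siMePCE, come from U2OS-Flp-In-TREx cells, for which the labels state no 4-OHT. The labels name 1 AsiSI line and 1 siRNA name for MEPCE, and they are silent on whether the 2 libraries of a group are separate cultures. The p-values therefore measure only the spread between these libraries, which may be technical. The series title places the experiment in work on MePCE, R-loops and homologous recombination at double-strand breaks.

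MePCE is the methyltransferase that caps the 5′ end of 7SK, an abundant small nuclear RNA made by RNA polymerase III. 7SK with LARP7 and HEXIM1 holds the kinase P-TEFb (CDK9 with a cyclin T) in an inactive store, and released P-TEFb phosphorylates paused RNA polymerase II and its pausing factors so that elongation goes on. AsiSI is a restriction enzyme that cuts DNA at an 8-base site. Fused to the ligand-binding part of the estrogen receptor, it enters the nucleus when 4-OHT is added and makes double-strand breaks, which cells repair by end joining or, with a sister chromatid as template, by homologous recombination. R-loops are RNA:DNA hybrids that form at transcribed sites and can also form at breaks.

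Total counts in the 4 AsiSI libraries ran from 44000840 to 53695626. Mitochondrial genes took 5.89% and 5.91% of the counts under siNC and 9.63% and 10.6% under siMePCE. Of the 11 osteosarcoma and mesenchymal markers, 10 were measured, and their summed level was 1680 and 1910 under siNC and 1510 and 1440 under siMePCE in CPM of the library total with no further scaling (unscaled CPM), most of it VIM and SPARC. The osteoblast markers ALPL, SP7, IBSP and BGLAP and the collagen gene COL1A2 had from 4 to 14 counts in the first siNC library. Markers of other cell types summed to between 7.84 and 25.6 unscaled CPM for 6 epithelial genes, with both siMePCE libraries above both siNC libraries, to between 4.28 and 7.77 for 5 immune genes, and to under 1 for 3 erythroid genes. Among the epithelial genes CLDN4 had 2.29 and 3.31 under siNC and 15.7 and 9.91 under siMePCE. EPCAM and CDH1 were also higher in both siMePCE libraries, while KRT5 went from 0.993 and 1.12 down to 0.223 and 0.273. The 3 neuronal markers summed to 106 and 104 unscaled CPM under siNC and 156 and 147 under siMePCE. Of these, RBFOX3 had 22.9 and 26.0 under siNC and 28.3 and 23.8 under siMePCE, so its groups overlapped. The part of these markers in the results was not tested.

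MEPCE itself lies on the plus strand of chromosome 7 (hg19, 100025945 to 100031749; ENSG00000146834). Its raw counts were 1405 and 1542 with siNC against 162 and 102 with siMePCE. On the scale used from here on, CPM adjusted by TMM, it had 29.3 and 29.3 CPM under siNC and 3.65 and 2.3 CPM under siMePCE, so the groups lay far apart and MEPCE was 9.85-fold lower (edgeR quasi-likelihood test, log2 fold change -3.30, SE 0.163, adjusted p = 9.73e-13). A row that overlaps MEPCE held 1.07 times its counts. RN7SK, the 7SK RNA that MePCE caps, had 7744 and 7965 CPM under siNC and 1595 and 1600.3 CPM under siMePCE, with 4.92-fold less RNA under siMePCE (log2 fold change -2.30, SE 0.0749, adjusted p = 2.09e-15). A second row of the files covers the same RNA. CDK9, the P-TEFb kinase, had 41.6 and 43.7 CPM under siNC and 19.4 and 16.6 CPM under siMePCE and fell as well (log2 fold change -1.24, SE 0.119, adjusted p = 2.08e-08). LARP7 and HEXIM1, the other proteins of the 7SK particle, were not called. LARP7 was at -0.24 on the log2 scale (adjusted p = 0.164) and HEXIM1 at -0.18 (adjusted p = 0.204), and the cyclins CCNT1 and CCNT2 had -0.16 (adjusted p = 0.153) and 0.19 (adjusted p = 0.206). Rows that overlap LARP7 and HEXIM1 held 0.926 and 1.11 times their counts. RN7SK had an overlapping row of 1.0 times its counts.

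Across the 43321 genes tested, 38.2% were called at an adjusted p under 0.05, 16.8% higher and 21.4% lower after siMePCE. Protein-coding genes (52.1% called) leaned to lower values: of 17341, 6093 (35.1%) fell and 2945 (17%) rose, with a median log2 fold change of -0.14. The share that fell differed with level. Coding genes were sorted by mean CPM into classes of near-equal size. In the lowest class 11.6% fell, and in the classes above it 42.5%, 47.5% and 38.9% fell. The share that rose lay between 15.0% and 20.3% in all of them. The 35.1% set beside the gene lists below is thus held down by genes of low CPM. Some of these lists hold few such genes. A mean CPM of 5 was reached by 28 of 29 R-loop factors and 20 of 20 genes of the 53BP1 branch. It was also reached by 22 of 27 matrix genes and 25 of 25 splicing regulators. Long noncoding genes (35% called) divided more evenly, with 1830 of 9905 (18.5%) higher and 1638 (16.5%) lower and a median of 0.13. With the filter set at a mean CPM of 1, the scaling moved the median of all genes by 0.13 and 7604 genes were called higher and 7332 lower, so the order of these totals rests on the filter. Coding genes then split into 3910 higher and 5060 lower. Tested against a change of 1.5-fold, 2676 genes were called higher and 3488 lower.

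The share of genes that rose grew with the length of the gene from start to end. Of protein-coding genes under 5 kb, 8.79% rose and 37.2% fell, with a median log2 fold change of -0.40. The share that rose grew with each longer class, and of the 327 genes of 500 kb and over 52.3% rose and 18.3% fell, with a median of 0.33. Long noncoding genes followed the same order, from 5.67% higher and 19.2% lower under 5 kb to 70.2% higher and 3.05% lower among the 131 of 500 kb and over. The coding order also held among genes without an overlapping gene of 0.1 or more of their counts, from 10.6% higher under 5 kb to 51.5% at 500 kb and over. Counts here include introns, so reads from unspliced RNA of long genes are part of these values. Genes of 100 kb and over took 33% and 32.2% of the counts of nuclear coding genes under siNC and 35.7% and 36.7% under siMePCE. In Flp-In the same shares were 32.2% and 31.9% under siNC and 32.8% and 34.3% under siMePCE. Among the longest coding genes with the smallest adjusted p, picked out after their values were seen, NRG3, a neuregulin ligand, had 176 and 187 CPM under siNC and 659 and 669.6 CPM under siMePCE (log2 fold change 1.87, SE 0.0773, adjusted p = 7.42e-14). MAGI2, a scaffold protein, and HDAC9, a histone deacetylase, rose by 1.87 and 1.61 on the log2 scale. TENM2, a teneurin adhesion protein, and CDH4, a cadherin, went the other way, at -1.52 and -1.29.

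**Figure D1:**
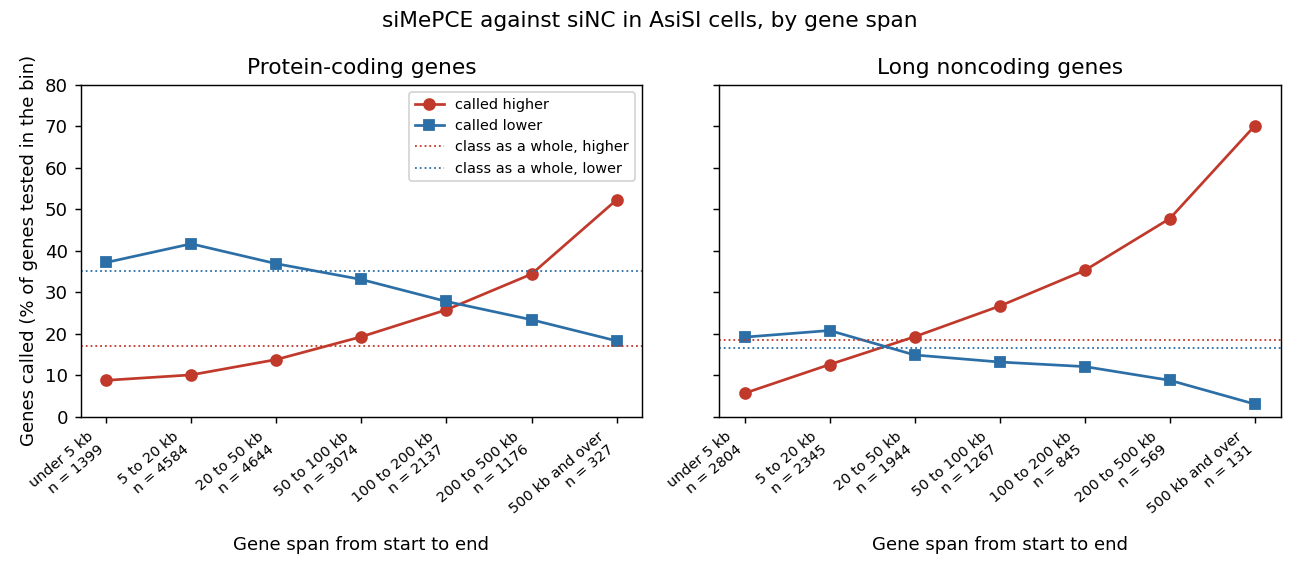
Share of genes called higher or lower after siMePCE in AsiSI cells (y axis, percent of the genes tested in the class) against gene span in 7 classes (x axis), for protein-coding genes on the left and long noncoding genes on the right. Dotted lines mark the share over the whole class. The share called higher climbs from 8.79% to 52.3% in coding genes and from 5.67% to 70.2% in long noncoding genes.

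The largest falls among coding genes did not share 1 function. KRT75, a hair follicle keratin, had 40.8 and 54.9 CPM under siNC and 3.65 and 2.61 CPM under siMePCE, a 15.3-fold fall (log2 fold change -3.93, SE 0.182, adjusted p = 4.03e-13). EIF4G3, a scaffold of the translation initiation complex eIF4F, had 93.6 and 82.4 CPM under siNC and 8.97 and 9.26 CPM under siMePCE (log2 fold change -3.27, SE 0.110, adjusted p = 3.2e-15). COPS7A, a subunit of the COP9 signalosome that removes NEDD8 from cullins, had 60.8 and 68.2 CPM under siNC and 8.47 and 8.35 CPM under siMePCE (log2 fold change -2.94, SE 0.114, adjusted p = 3.43e-14). In each of these genes both siMePCE libraries lay far below both siNC libraries. The rule for naming the largest falls required groups that did not overlap. LMF2, a protein of the endoplasmic reticulum, had 23.3 and 26.2 CPM under siNC and 3.36 and 2.25 CPM under siMePCE (log2 fold change -3.14, SE 0.169, adjusted p = 3.46e-12). ABCA2, a lipid transporter, had 16.4 and 16.8 CPM under siNC and 1.76 and 2.03 under siMePCE, and VARS1, the valine tRNA synthetase, 131 and 159 and 24.3 and 18.6. The log2 fold changes of ABCA2 and VARS1 were -3.13 and -2.76. KIAA1755, CCDC9B and GAS1, the last a cell surface protein of growth arrest and hedgehog signalling, followed at -2.95, -2.84 and -2.66. HAPLN1, which ties hyaluronan to proteoglycans, had 35.5 and 22.5 CPM under siNC and 3.81 and 4.05 CPM under siMePCE, and MMP3, the stromelysin protease, 119 and 265 CPM under siNC and 20.5 and 39.5 CPM under siMePCE. They fell 7.37-fold and 6.41-fold, and the siNC libraries of both stood well apart from each other. The other 4 genes of the 15 largest falls were histone genes, described with the other histone genes. Outside that set but abundant, HNRNPM, a splicing regulator of the hnRNP family, had 115 and 107 CPM under siNC and 30.5 and 25.4 CPM under siMePCE (log2 fold change -1.99, SE 0.0995, adjusted p = 1.21e-12). MMP3 lost its call with no count filter, fitted on the 4 AsiSI libraries alone, without siNC replicate 2, without siMePCE replicate 1 and without siMePCE replicate 2 (adjusted p = 0.0521, 0.121, 0.0929, 0.116 and 0.073).

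The largest rises included several genes that were near silent under siNC. SYT4, a synaptotagmin of vesicle traffic, had 0.250 and 0.380 CPM under siNC and 13.2 and 12.8 CPM under siMePCE, a 40.5-fold rise (log2 fold change 5.34, SE 0.324, adjusted p = 2.06e-11). ADAM18, a sperm-associated disintegrin, had 1.17 and 0.760 CPM under siNC and 9.01 and 12.8 CPM under siMePCE, and SPATA16, a spermatogenesis gene, 1.83 and 2.03 CPM under siNC and 12.5 and 9.55 CPM under siMePCE. GCNA, a germ cell nuclear protein, rose by 2.46 on the log2 scale. All of these had groups that did not overlap, which the rule for naming the largest rises required. CXCL8, the neutrophil chemokine interleukin 8, was the most abundant gene in this set, at 82.8 and 42.2 CPM under siNC and 644 and 611 CPM under siMePCE (log2 fold change 3.33, SE 0.340, adjusted p = 0.00102). The siNC libraries of CXCL8 stood well apart from each other, and the siMePCE libraries lay above both. DKK2, a secreted Wnt modulator, had 14.9 and 13.5 CPM under siNC and 126 and 101 CPM under siMePCE (log2 fold change 3.0, SE 0.156, adjusted p = 8.4e-12). NXPH1, a neurexophilin, had 4.98 and 7.61 CPM under siNC and 47 and 73.5 under siMePCE, and ODAPH, an enamel mineralization protein, 4.31 and 4.72 and 32.5 and 34.8. The matrix genes LUM, a small proteoglycan, and VCAN, versican, rose from 8.5 and 5.32 to 48.6 and 34.6 CPM and from 1.63 and 1.71 to 9.53 and 9.05 CPM. FREM1, an extracellular matrix protein of basement membranes, PPP1R1C, a phosphatase inhibitor, RIMKLA, an N-acetylaspartylglutamate synthetase, and WDR49 rose by 2.80, 2.68, 2.65 and 2.52. TRAF1, a signalling adaptor of TNF receptors and the last of the 15, is described with the NF-kB genes.

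**Figure D2:**
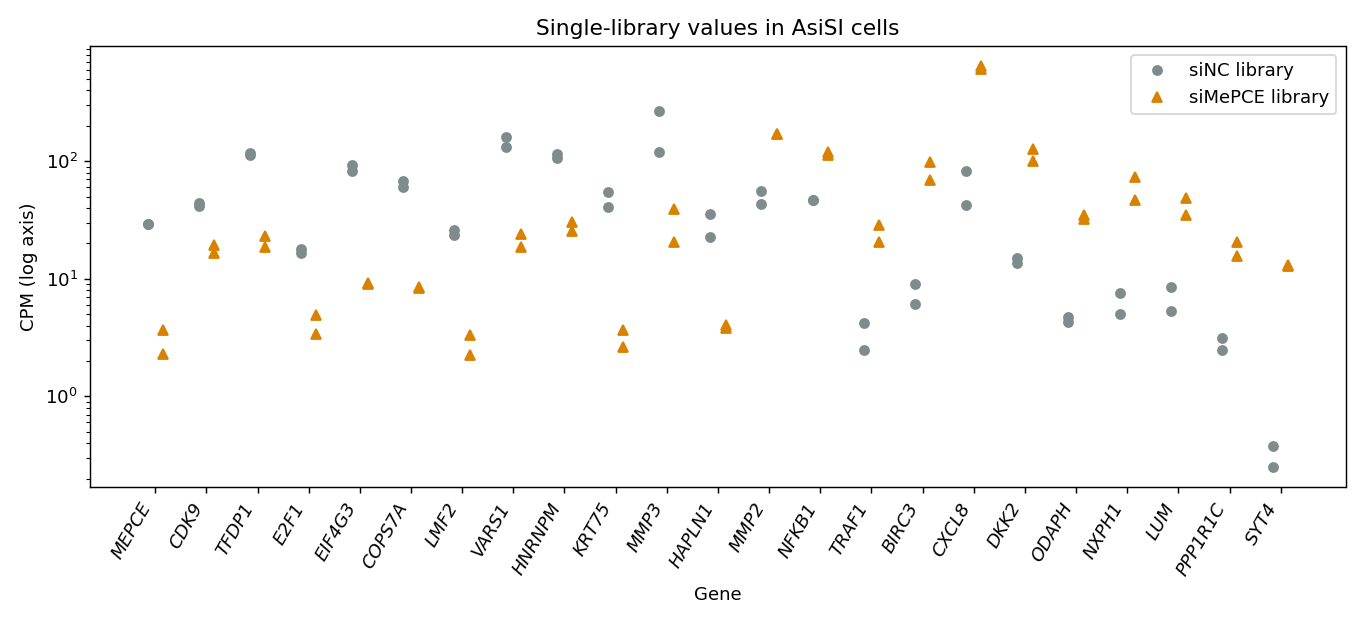
Single-library CPM (y axis, log scale) of 23 genes named in the text (x axis). Grey circles are the 2 siNC libraries and orange triangles the 2 siMePCE libraries of AsiSI cells. In every gene shown the 2 groups are separate, from KRT75, which fell 15.3-fold, to SYT4. For the genes named as largest rises and falls, separate groups were required by the naming rule.

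In the machinery of transcription beyond P-TEFb 58.3% of polymerase II and 68.8% of Integrator subunits fell, beside 35.1% lower and 17% higher over all coding genes. Of the 12 RNA polymerase II subunits, 7 fell and 1 rose, with a median log2 fold change of -0.33. POLR2A, the large catalytic subunit that P-TEFb phosphorylates, had 134 and 138 CPM under siNC and 85.1 and 81.4 CPM under siMePCE (log2 fold change -0.71, SE 0.0891, adjusted p = 1.1e-06). POLR2G, a stalk subunit, fell to -1.18 on the log2 scale, and POLR2K was the 1 that rose, at 0.39. Of the 16 subunits of Integrator, a complex that cleaves nascent RNA and ends transcription at paused polymerase, 11 fell and 1 rose, the last being INTS6 (log2 fold change 0.30). INTS1, the largest subunit, had 219.6 and 244 CPM under siNC and 93.3 and 85.4 CPM under siMePCE (log2 fold change -1.37, SE 0.0973, adjusted p = 2.06e-10), and INTS11, the endonuclease, had 30.2 and 34.8 CPM under siNC and 15.2 and 15.9 CPM under siMePCE (log2 fold change -1.06, SE 0.123, adjusted p = 3.45e-07). Of the 23 pause and elongation factors 8 fell and 3 rose, close to the shares of all coding genes. The negative elongation factor subunits NELFB and NELFE were at -1.02 and -0.83, and SUPT5H, the large subunit of the pausing factor DSIF, was at 0.08 and not called (adjusted p = 0.628). Of 13 transcriptional CDKs and cyclins 4 rose and 2 fell (median 0.03), and 2 and 2 of the 7 without an overlapping gene of 0.5 or more of their counts. CCNL1, a cyclin of the splicing-linked kinase CDK11, and MNAT1, an assembly factor of the TFIIH kinase, rose by 0.46 and 0.50, while CDK12, the kinase of elongating polymerase, and the cyclin CCNL2 fell, at -0.47 and -0.53. Of the 30 Mediator subunits 7 rose and 9 fell, with a median of -0.02, and of the 19 free of such an overlap 4 rose and 4 fell. Integrator genes called higher numbered 0 without siNC replicate 1 or siMePCE replicate 2. Transcriptional CDKs and cyclins called higher numbered 1 without siNC replicate 2 or siMePCE replicate 1 and those called lower numbered 1 without siNC replicate 1 or siMePCE replicate 2. Of the Mediator genes, 12 were called higher and 7 lower with the filter at a mean CPM of 1. CCNL1 and MNAT1 had overlapping rows of 1.3 and 0.708 times their counts. CCNL1 lost its call without siNC replicate 2 and without siMePCE replicate 1 (adjusted p = 0.0753 and 0.0897). CCNL2 lost its call without siNC replicate 1 and without siMePCE replicate 2 (adjusted p = 0.236 and 0.131). INTS6 lost its call without siNC replicate 1 and without siMePCE replicate 2 (adjusted p = 0.12 and 0.076).

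**Figure D3:**
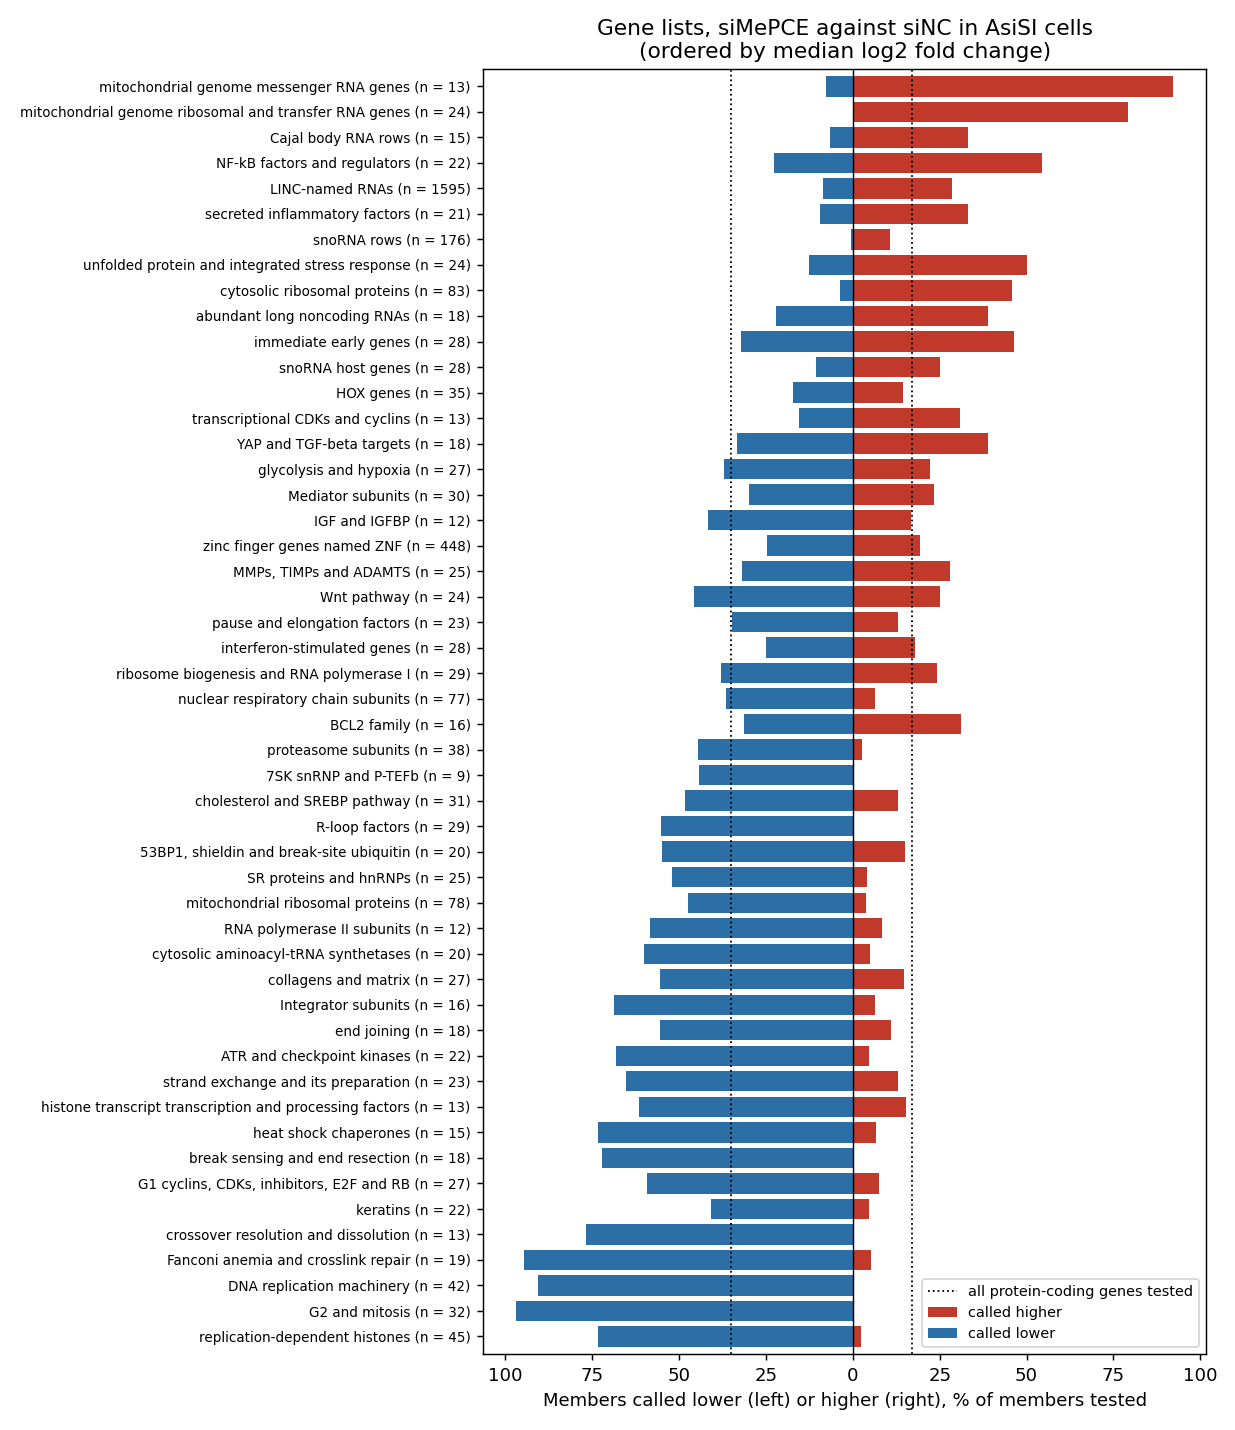
Share of each gene list called lower (blue, to the left) or higher (red, to the right) after siMePCE in AsiSI cells, as a percent of the members tested (x axis), with lists (y axis) ordered by their median log2 fold change. Dotted lines mark the shares over all protein-coding genes, 35.1% lower and 17% higher. The G2 and mitosis, replication and Fanconi anemia lists reach furthest to the left and the mitochondrial genome lists furthest to the right.

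Genes of DNA replication and mitosis fell nearly as a block. Of 42 genes of the replication machinery, 38 fell and 0 rose, with a median log2 fold change of -0.84, and of 32 genes of G2 and mitosis 31 fell and 0 rose, with a median of -1.12. Against these stand 35.1% lower and a median of -0.14 over all coding genes. Without the genes that have an overlapping gene of 0.5 or more of their counts, 27 of 30 and 22 of 23 fell. RRM2, the small subunit of ribonucleotide reductase, had 230.4 and 203 CPM under siNC and 60.4 and 50.8 CPM under siMePCE (log2 fold change -1.96, SE 0.0941, adjusted p = 6.25e-13). MCM7, a subunit of the replicative helicase, had 51.3 and 53.3 CPM under siNC and 13.7 and 13.9 CPM under siMePCE (log2 fold change -1.93, SE 0.102, adjusted p = 2.89e-12), and UHRF1, which keeps DNA methylation at replication forks, 51.8 and 53.9 CPM under siNC and 13.9 and 13 CPM under siMePCE (log2 fold change -1.97, SE 0.107, adjusted p = 3.9e-12). CDC6, which loads the helicase, was among the 4 replication genes not called, at -0.01 (adjusted p = 0.958). Among the mitotic genes, CDC20, an activator of the anaphase-promoting complex, had 93.5 and 109 CPM under siNC and 37 and 30.5 CPM under siMePCE (log2 fold change -1.59, SE 0.112, adjusted p = 1.87e-10). MKI67, the proliferation antigen Ki-67, had 797 and 771 CPM under siNC and 279.9 and 219 CPM under siMePCE (log2 fold change -1.65, SE 0.109, adjusted p = 2.47e-10), and CCNB1, cyclin B1, 276 and 265 CPM under siNC and 139 and 116 CPM under siMePCE (log2 fold change -1.09, SE 0.0999, adjusted p = 1.14e-08). PRC1, which bundles microtubules of the spindle midzone, was at -1.54, and PCNA, the sliding clamp of replication, at -0.95. The kinases AURKB and PLK1 and the transcription factor MYBL2 fell, at -1.88, -1.53 and -1.44 on the log2 scale. Groups did not overlap in any of the genes given here by library. PRC1 had an overlapping row of 1.2 times its counts.

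Regulators of the G1 to S step mostly fell. TFDP1, the dimer partner of the E2F factors, had 118 and 113 CPM under siNC and 23.1 and 18.6 CPM under siMePCE (log2 fold change -2.47, SE 0.108, adjusted p = 1.64e-13). E2F1, the activator that drives S-phase genes, had 16.4 and 18 CPM under siNC and 4.89 and 3.38 CPM under siMePCE (log2 fold change -2.06, SE 0.171, adjusted p = 2.45e-09), and E2F4, mostly a repressor, 56 and 55.9 CPM under siNC and 23.1 and 17.6 CPM under siMePCE (log2 fold change -1.46, SE 0.125, adjusted p = 3.9e-09). E2F3 and TFDP2 rose, at 0.35 (adjusted p = 0.00197) and 0.33 (adjusted p = 0.0157). CCND1, cyclin D1, had 104 and 110.5 CPM under siNC and 46.6 and 40.3 CPM under siMePCE (log2 fold change -1.30, SE 0.0977, adjusted p = 5.01e-10), while CCND3 and the inhibitor CDKN1A, p21, were not called, at -0.07 (adjusted p = 0.696) and 0.18 (adjusted p = 0.108). The pocket proteins RB1 and RBL1, which hold E2F factors in check, fell, at -0.60 and -1.02. Of the 27 genes of this group 16 fell and 2 rose, with a median of -0.60. These are 59.3% and 7.41%, beside 35.1% and 17% over all coding genes. G1 to S regulators called higher numbered 1 without siNC replicate 2 or siMePCE replicate 1. TFDP2 lost its call without siNC replicate 2 and without siMePCE replicate 1 (adjusted p = 0.0842 and 0.169).

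Promoter sequence was read for the replication and mitosis lists as a whole. RefSeq promoter windows (GRCh38.p14, from 250 bases before to 50 after the start site) were found for 37 of the 42 replication genes and 26 of the 32 mitosis genes. A gene was counted if any of its windows held the letters. The letters TTTGAA, the core of the cell cycle genes homology region (CHR) of late cell cycle promoters, stood on either strand in 17 of the 26 mitosis genes (65.4%). They stood in 1 of the 37 replication genes (2.70%), in 14 of 42 histone genes (33.3%) and in 18.2% of the 27305 genes of the table. The letters TTTCCCGC, a form of the E2F site, stood in 10 of the 37 replication genes (27.0%), in 0 of the 26 mitosis genes, and in 1.98% of the genes of the table. Another E2F form, TTTGGCGC, stood in 7 of the 37 replication genes (18.9%) and in 0.795% of the genes of the table. The 7 include CDC6, which was not called. CCAAT, the box bound by NF-Y, stood in 20 of the 26 mitosis genes (76.9%) and in 23 of the 37 replication genes (62.2%). It stood in 34 of 42 histone genes (81.0%), in 16 of 22 stress response genes (72.7%) and in 39.7% of the genes of the table. These shares cover list members whether or not they were called, so they would be the same for any fold changes of these genes. The matches are a description of letters in a window and do not show that a factor bound there. A few windows show the letters in place, in capitals, 5′ to 3′ along the gene. They are given as TTCAAA or GCGGGAAA where the match is on the opposite strand.
CDC20 (chr1:43358792-43358819, plus strand): ctctcgtacccTTCAAAtcgcgctccgc
MKI67 (chr10:128126454-128126481, minus strand): tagcgccagaaTTTGAAtcttcgttttc
PRC1 (chr15:90994539-90994566, minus strand): ccgtggcgcggTTTGAAattttgcgggg
MCM7 (chr7:100101566-100101595, minus strand): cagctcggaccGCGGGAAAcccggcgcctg
UHRF1 (chr19:4909476-4909505, plus strand): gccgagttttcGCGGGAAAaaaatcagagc
PCNA (chr20:5126663-5126692, minus strand): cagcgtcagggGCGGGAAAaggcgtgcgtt

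Replication-dependent histone genes, whose short transcripts are made in S phase and end in a stem-loop in place of a poly(A) tail, fell in most cases. Of 45 measured of 64 listed, 33 fell and 1 rose, with a median log2 fold change of -1.82, beside -0.84 for the replication machinery. The share that fell was 73.3%, beside 35.1% over all coding genes. Among the 21 without an overlapping gene of 0.5 or more of their counts, 17 fell, with a median of -1.99. H2BC13 had 15.2 and 18.6 CPM under siNC and 1.26 and 1.4 CPM under siMePCE (log2 fold change -3.67, SE 0.205, adjusted p = 5.78e-12), H2BC14 33.8 and 38.2 CPM under siNC and 3.49 and 4.89 CPM under siMePCE, H3C10 15.4 and 18.3 CPM under siNC and 2.82 and 2.32 CPM under siMePCE and H2AC12 39 and 56.2 CPM under siNC and 6.89 and 7.79 CPM under siMePCE. Each of these was at least 6.48-fold lower, with groups that did not overlap, which the rule for naming the largest falls required. Histone genes are near-identical copies, so reads may be split between them and single genes are uncertain. The 1 called higher was H3C6, which had 0 and 0.038 CPM under siNC and 0.225 and 0.158 CPM under siMePCE. Factors that make or process histone transcripts fell in 8 of 13, with a median of -0.42. Among them CPSF3, the endonuclease that cuts histone transcripts, had 31.7 and 31.4 CPM under siNC and 19.4 and 20 CPM under siMePCE (log2 fold change -0.68, SE 0.101, adjusted p = 1.1e-05), and SLBP, which binds their stem-loop, was at -0.47 (adjusted p = 0.0022). NPAT, the activator of histone transcription, was not called (0.04, adjusted p = 0.745), and LSM11, a subunit of the U7 particle, rose (0.68, adjusted p = 0.000684). Histone genes called higher numbered 0 without siNC replicate 1. Histone processing factors called higher numbered 1 without siNC replicate 1 or siMePCE replicate 1.

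Genes of double-strand break repair fell more often than they rose at each step of homologous recombination, beside 35.1% lower and 17% higher over all coding genes. The shares that fell were 72.2% in break sensing and resection, 65.2% in strand exchange and 76.9% in resolution. Of 18 genes of break sensing and end resection 13 fell and 0 rose (median log2 fold change -0.46). H2AX, the histone variant marked at breaks, had 46 and 53 CPM under siNC and 18 and 15.5 CPM under siMePCE (log2 fold change -1.56, SE 0.122, adjusted p = 9.06e-10). ATM, the kinase that sets this mark, had 132 and 113 CPM under siNC and 75.1 and 73.3 CPM under siMePCE (log2 fold change -0.72, SE 0.0941, adjusted p = 1.77e-06), and RBBP8, the resection factor CtIP, 81 and 74.4 CPM under siNC and 51.5 and 49.5 CPM under siMePCE (log2 fold change -0.62, SE 0.0862, adjusted p = 4.2e-06). The nuclease EXO1 and the subunits MRE11 and NBN of the MRN complex fell too, at -0.65, -0.42 and -0.50. BARD1, the partner of BRCA1, and BLM and WRN, helicases of resection, were not called, at -0.19 (adjusted p = 0.144), -0.06 (adjusted p = 0.641) and 0.08 (adjusted p = 0.53).

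Of 23 genes of strand exchange and its preparation, 15 fell and 3 rose (median -0.42). BRCA2, a mediator of strand exchange, had 131 and 113 CPM under siNC and 75.3 and 66.6 CPM under siMePCE (log2 fold change -0.78, SE 0.0940, adjusted p = 6e-07). The family members RAD51C and RAD51B were not called, at -0.01 (adjusted p = 0.939) and -0.003 (adjusted p = 0.981). FIGNL1, an ATPase that restrains strand exchange, went the other way, at 15.1 and 15.3 CPM under siNC and 35.3 and 30.9 CPM under siMePCE (log2 fold change 1.12, SE 0.127, adjusted p = 2.54e-07). SEM1, a small BRCA2-binding protein, also rose (0.59, adjusted p = 1.2e-05), as did MCM9, a helicase of this pathway (0.33, adjusted p = 0.00634). In genes that resolve or undo joint molecules, 10 of 13 fell and 0 rose (median -0.68), among them FBH1, an anti-recombination helicase, at 41 and 42.6 CPM under siNC and 21.1 and 18.2 CPM under siMePCE (log2 fold change -1.09, SE 0.109, adjusted p = 4.05e-08), and RMI1, of the BLM complex, at -0.79. The Fanconi anemia list, for repair of crosslinks, fell in 18 of 19, with a median of -0.77. Its ubiquitin-conjugating enzyme UBE2T had 26.1 and 20.9 CPM under siNC and 11.6 and 8.99 CPM under siMePCE (log2 fold change -1.19, SE 0.146, adjusted p = 7.34e-07), and the nuclease subunit ERCC1 59.5 and 64.7 CPM under siNC and 34.6 and 36.4 CPM under siMePCE (log2 fold change -0.81, SE 0.0997, adjusted p = 8.54e-07). The 1 member that rose was FANCB, at 0.30. Fanconi genes called higher numbered 0 without siNC replicate 2 or siMePCE replicate 1. MCM9 had an overlapping row of 0.627 times its counts. FANCB lost its call without siNC replicate 2 and without siMePCE replicate 1 (adjusted p = 0.123 and 0.182). MCM9 lost its call without siNC replicate 2 and without siMePCE replicate 1 (adjusted p = 0.0519 and 0.0581).

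Pathways that compete with recombination are read beside the same coding shares, 35.1% lower and 17% higher. Of 20 genes of the 53BP1, shieldin and ubiquitin branch, which protects ends from resection, 11 fell and 3 rose (median -0.28). TP53BP1 itself was not called (-0.04, adjusted p = 0.74), HERC2, a ubiquitin ligase at breaks, had 71.3 and 66.9 CPM under siNC and 43.4 and 43.5 CPM under siMePCE (log2 fold change -0.67, SE 0.0850, adjusted p = 1.3e-06), and RNF168, the ligase that marks chromatin for 53BP1, rose (0.34, adjusted p = 0.00545). Of 18 end joining genes 10 fell and 2 rose (median -0.41). Of the 11 without an overlapping gene of 0.5 or more of their counts, 4 fell and 1 rose (median -0.12), near the coding shares. PRKDC, the catalytic subunit of the DNA-dependent kinase, had 901 and 818 CPM under siNC and 432 and 396 CPM under siMePCE (log2 fold change -1.05, SE 0.0798, adjusted p = 5.83e-10). POLQ, the polymerase of microhomology-mediated joining, fell, at -0.76, and PARP1, a sensor of breaks, was at -0.77. The Ku genes XRCC5 and XRCC6, which bind the ends first, were at -0.11 (adjusted p = 0.244) and -0.12 (adjusted p = 0.269) and were not called, and APLF and XRCC4 rose, at 0.55 and 0.70. A gene that overlaps XRCC4 held 0.763 times its counts, and one that overlaps TP53BP1 held 0.570 times its counts. 53BP1 branch genes called higher numbered 1 without siMePCE replicate 1 and those called lower numbered 6 without siMePCE replicate 2.

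**Figure D4:**
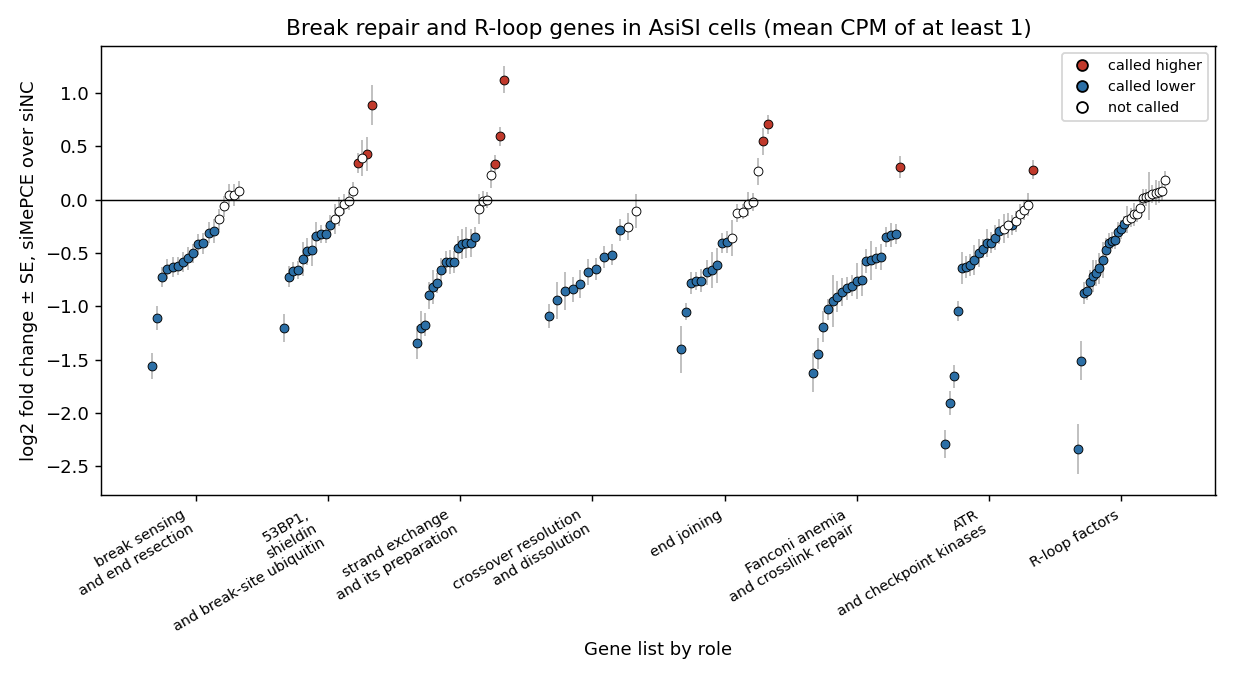
Log2 fold change after siMePCE in AsiSI cells (y axis, bars are SE) of break repair, checkpoint and R-loop genes whose mean CPM reached 1, by list (x axis) and sorted within each list. Blue points were called lower, red higher and white not called. Most points of every list lie below 0, and FIGNL1 at 1.12 is the highest point.

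Among 29 R-loop factors 16 (55.2%) fell, 0 rose and 13 were not called (median -0.28). DESeq2 called 1 of these factors higher. Over all coding genes 35.1% fell and 17% rose, and in the classes above the lowest mean CPM 38.9% to 47.5% fell. PIF1, a helicase that unwinds hybrids, had 10.04 and 7.22 CPM under siNC and 2.19 and 1.22 CPM under siMePCE (log2 fold change -2.34, SE 0.237, adjusted p = 4.82e-08). FANCD2, which gathers at stalled forks and R-loops, had 122 and 107 CPM under siNC and 69.2 and 55.9 CPM under siMePCE (log2 fold change -0.88, SE 0.103, adjusted p = 4.26e-07), and SSRP1, of the histone chaperone FACT, 153 and 166 CPM under siNC and 88.2 and 87.9 CPM under siMePCE (log2 fold change -0.86, SE 0.0834, adjusted p = 2.68e-08). RNASEH2A, the catalytic subunit of RNase H2, fell, at -1.51 and RNASEH1 was at -0.69, with overlapping rows of 6.17 and 1.1 times their counts. The helicase AQR and the nuclease XRN2 were not called, at 0.01 (adjusted p = 0.919) and 0.05 (adjusted p = 0.691). In the ATR branch of the checkpoint, 15 of 22 fell and 1 rose (median -0.41). PKMYT1, an inhibitory kinase of CDK1, had 22.6 and 23.7 CPM under siNC and 5.18 and 4.28 CPM under siMePCE (log2 fold change -2.29, SE 0.134, adjusted p = 1.11e-11), and CDC25B, the phosphatase that opposes it, 54.1 and 57.9 CPM under siNC and 14.6 and 15.4 CPM under siMePCE (log2 fold change -1.90, SE 0.112, adjusted p = 1.29e-11). TIMELESS, a fork protection factor, had 50.2 and 46.7 CPM under siNC and 16 and 14.7 CPM under siMePCE (log2 fold change -1.66, SE 0.104, adjusted p = 3.7e-11). ATR was at -0.46 (adjusted p = 0.000285), and WEE1 was not called (-0.05, adjusted p = 0.76). ATR branch genes called higher numbered 0 without siNC replicate 1 or siNC replicate 2 or siMePCE replicate 1 and those called lower numbered 9 without siMePCE replicate 2.

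Of single genes known to respond to DNA damage, DDB2, a damage sensor of nucleotide excision repair, had 88.5 and 77.9 CPM under siNC and 48.5 and 37.4 CPM under siMePCE (log2 fold change -0.95, SE 0.109, adjusted p = 2.7e-07), and the death receptor FAS had 73 and 59.1 CPM under siNC and 47.6 and 44 CPM under siMePCE (log2 fold change -0.53, SE 0.108, adjusted p = 0.000412). CCNG1, cyclin G1, rose (61.3 and 45.2 CPM under siNC and 151 and 141 CPM under siMePCE; log2 fold change 1.46, SE 0.113, adjusted p = 1.03e-09), and the stress cytokine GDF15 rose from 3.92 and 4.16 to 7.61 and 6.55 CPM (log2 fold change 0.81, SE 0.173, adjusted p = 0.000676). CDKN1A, a cyclin-dependent kinase inhibitor, and MDM2, a ubiquitin ligase, were not called, at 0.18 (adjusted p = 0.108) and 0.08 (adjusted p = 0.501). In the BCL2 family of cell death regulators 5 rose and 5 fell of 16, and 3 and 1 of the 10 without an overlapping gene of 0.5 or more of their counts. Each count of 5 is 31.2%, beside 17% higher and 35.1% lower over all coding genes. BOK, a pore-forming member, had 24.9 and 25.6 CPM under siNC and 9.55 and 9.05 CPM under siMePCE (log2 fold change -1.44, SE 0.136, adjusted p = 1.74e-08), BBC3 (PUMA), a promoter of cell death, rose (0.77, adjusted p = 0.00192), and MCL1 and BCL2L1, which protect cells, were not called (-0.10, adjusted p = 0.393, and 0.15, adjusted p = 0.15). BCL2 family genes called higher numbered 3 without siNC replicate 1 or siMePCE replicate 1 and those called lower numbered 3 without siNC replicate 2. BBC3 lost its call without siMePCE replicate 1 (adjusted p = 0.0683).

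NF-kB subunits, inhibitors and feedback genes rose more often than they fell. NF-kB dimers are held in the cytoplasm by IkB proteins and, once free, switch on genes that include their own inhibitors. Of 22 genes 12 (54.5%) rose and 5 fell, with a median log2 fold change of 0.55, beside 17% higher and 35.1% lower over all coding genes. The subunit NFKB1 (p105 and p50) had 47.2 and 46.4 CPM under siNC and 120.1 and 112 CPM under siMePCE (log2 fold change 1.31, SE 0.0859, adjusted p = 7.09e-11), and RELB 8.5 and 7.21 CPM under siNC and 24.3 and 17 CPM under siMePCE (log2 fold change 1.39, SE 0.158, adjusted p = 2.47e-07). RELA, the main activating subunit, fell (-0.39, adjusted p = 0.00418). Both siMePCE libraries of NFKB1 and RELB lay above both siNC libraries. Of the inhibitors, NFKBIE had 2.83 and 3.42 CPM under siNC and 9.15 and 7.43 CPM under siMePCE (log2 fold change 1.40, SE 0.219, adjusted p = 1.93e-05), and CYLD, a deubiquitinase that ends the signal, 54.1 and 54.6 CPM under siNC and 103 and 100.1 CPM under siMePCE (log2 fold change 0.90, SE 0.0872, adjusted p = 2.43e-08). Of the TNF receptor adaptors, TRAF1 had 4.21 and 2.47 CPM under siNC and 28.4 and 20.4 CPM under siMePCE (log2 fold change 2.88, SE 0.202, adjusted p = 1.16e-09) and TRAF3 rose by 0.73. BIRC3, an inhibitor of apoptosis and ubiquitin ligase, had 9.06 and 6.07 CPM under siNC and 98.8 and 69.5 CPM under siMePCE (log2 fold change 3.48, SE 0.212, adjusted p = 1.57e-07), and TNFAIP3 (A20), which edits ubiquitin chains, 14.3 and 13.8 CPM under siNC and 38.7 and 35.7 CPM under siMePCE (log2 fold change 1.40, SE 0.121, adjusted p = 4.21e-09). Overlapping rows held 0.836 and 0.756 times the counts of BIRC3 and TNFAIP3. NF-kB genes called lower numbered 1 without siMePCE replicate 2. RELA lost its call without siMePCE replicate 2 (adjusted p = 0.0511).

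Promoter windows were found for 19 of these 22 genes. The letters GGGNNTTCC, a form of the NF-kB site with any base at N, stood on either strand in 9 of the 19 (47.4%) and in 7.97% of the genes of the table. The 9 include TNFAIP2, which was called lower, and do not include NFKB1 or RELB, which rose. The share covers list members whether or not they were called. The windows of 4 of the 9, all of genes that rose, are shown with the match in capitals, in the same build and reading. GGAAATCCC is a match on the opposite strand.
TRAF1 (chr9:120926768-120926796, minus strand): gatttcatcaGGGCTTTCCtgctccttct
TNFAIP3 (chr6:137867194-137867222, plus strand): aaagtcccgtGGAAATCCCcgggcctaca
CYLD (chr16:50742405-50742433, plus strand): cccccccaccGGGGCTTCCccatcccccg
BIRC3 (chr11:102317275-102317303, plus strand): tttgggtcatGGAAATCCCcgagtgggtt

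Secreted inflammatory factors were mixed. Of 21 measured of 25, 7 rose, 2 fell and 12 were not called (median 0.53), many of them at low levels. Over all coding genes 17% rose and 35.1% fell. Besides CXCL8, CCL20, a chemokine for lymphocytes and dendritic cells, had 11.4 and 13.6 CPM under siNC and 33.6 and 27.5 CPM under siMePCE (log2 fold change 1.29, SE 0.144, adjusted p = 2.03e-07). LIF, a cytokine of the interleukin 6 family, fell (26.7 and 25.7 CPM under siNC and 10.9 and 8.78 CPM under siMePCE; log2 fold change -1.41, SE 0.131, adjusted p = 1.24e-08). IL6 was not called (-0.46, adjusted p = 0.307). Interferon-stimulated genes showed no common direction, with 5 higher and 7 lower of 28 and a median of -0.08. STAT2, which carries the interferon signal, had 26.8 and 25 CPM under siNC and 14.8 and 13.3 CPM under siMePCE (log2 fold change -0.88, SE 0.122, adjusted p = 3.92e-06). Immediate early genes, which respond within minutes to many stimuli, rose in 13 and fell in 9 of 28. The order turned among the 18 without an overlapping gene of 0.5 or more of their counts, where 5 rose and 7 fell. ATF3, a stress-induced factor, had 27 and 29.7 CPM under siNC and 124 and 102 CPM under siMePCE (log2 fold change 1.99, SE 0.116, adjusted p = 1.02e-11), and the AP-1 subunit FOS 5.04 and 3.08 CPM under siNC and 15.7 and 11.5 CPM under siMePCE (log2 fold change 1.75, SE 0.204, adjusted p = 3.79e-07). The nuclear receptor NR4A2 rose by 1.94. The AP-1 subunits JUND and JUN fell, JUND from 29.9 and 35.6 to 6.67 and 8.17 CPM (log2 fold change -2.14, SE 0.136, adjusted p = 4.13e-11) and JUN to a log2 fold change of -0.69. KLF2, a Krüppel-like factor, fell, at -1.95, and EGR1 was at 0.02 (adjusted p = 0.947). Interferon-stimulated genes called higher numbered 3 without siNC replicate 1 and 2 without siMePCE replicate 1. Of the interferon-stimulated genes, 6 were called higher and 6 lower with the filter at a mean CPM of 1. IL6 had an overlapping row of 4.93 times its counts.

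Stress genes of the endoplasmic reticulum and heat shock chaperones moved apart. Of 24 genes of the unfolded protein and integrated stress response, 12 rose and 3 fell (median 0.34). These are 50% and 12.5%, beside 17% and 35.1% over all coding genes. DNAJB9, a co-chaperone of the endoplasmic reticulum, had 10.5 and 7.83 CPM under siNC and 34.7 and 35.2 CPM under siMePCE (log2 fold change 1.93, SE 0.144, adjusted p = 4.45e-10). HSPA5, the chaperone BiP, had 268 and 266 CPM under siNC and 479.8 and 399 CPM under siMePCE (log2 fold change 0.72, SE 0.0999, adjusted p = 4.78e-06), and HERPUD1, of degradation at that membrane, 21.5 and 19.9 CPM under siNC and 39.3 and 34.6 CPM under siMePCE (log2 fold change 0.84, SE 0.125, adjusted p = 1.07e-05). The factors ATF4 and XBP1 rose by 0.42 and 0.56, while ASNS and TRIB3, targets of ATF4, were not called, at -0.03 (adjusted p = 0.833) and 0.18 (adjusted p = 0.297). Among 15 heat shock chaperones 11 fell and 1 rose (median -0.46). HSP90AA1, the inducible cytosolic HSP90, had 1022 and 1042 CPM under siNC and 437 and 398 CPM under siMePCE (log2 fold change -1.30, SE 0.0794, adjusted p = 2.16e-11), DNAJB1, a co-chaperone of HSP70, 95.8 and 119.7 CPM under siNC and 54.1 and 50.2 CPM under siMePCE (log2 fold change -1.05, SE 0.111, adjusted p = 9.58e-08), and HSPD1, the mitochondrial chaperonin, 354 and 371 CPM under siNC and 218 and 213 CPM under siMePCE (log2 fold change -0.75, SE 0.0759, adjusted p = 4.81e-08). HSF1, the factor that drives these genes, fell, at -0.95. HSPA1A, inducible HSP70, rose (0.74, adjusted p = 0.0149). Unfolded protein response genes called lower numbered 1 without siNC replicate 2 or siMePCE replicate 1. Heat shock chaperones called higher numbered 0 without siNC replicate 1 or siMePCE replicate 1 and 3 without siNC replicate 2. ASNS had an overlapping row of 1.24 times its counts. HSPA1A lost its call without siNC replicate 1, without siMePCE replicate 1 and in DESeq2 (adjusted p = 0.109, 0.142 and 0.0576).

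In protein synthesis and turnover the groups again divided. Of 83 cytosolic ribosomal protein genes 38 (45.8%) rose and 3 fell, with a small median of 0.21. Of the 56 without an overlapping gene of 0.5 or more of their counts, 23 rose and 2 fell (median 0.18). RPL34 had 71.8 and 71.1 CPM under siNC and 109.5 and 103 CPM under siMePCE (log2 fold change 0.58, SE 0.0858, adjusted p = 1.09e-05) and RPS29 4413 and 5168 CPM under siNC and 7086 and 7315 CPM under siMePCE (log2 fold change 0.59, SE 0.0828, adjusted p = 5.25e-06). Cytosolic tRNA synthetases fell in 12 of 20 and rose in 1 (median -0.35). VARS1 led them, and QARS1, for glutamine, had 78.6 and 82.2 CPM under siNC and 39.1 and 40.3 CPM under siMePCE (log2 fold change -1.02, SE 0.0911, adjusted p = 7.43e-09). Of the initiation factors, EIF4G1, the main eIF4F scaffold and a paralog of EIF4G3, had 446 and 506 CPM under siNC and 251 and 251 CPM under siMePCE (log2 fold change -0.92, SE 0.0858, adjusted p = 1.35e-08), EIF4E, the cap-binding protein, was not called (0.06, adjusted p = 0.617), and EIF2S3, a subunit of eIF2, rose (0.55, adjusted p = 2.48e-05). Of 38 proteasome subunits 17 (44.7%) fell and 1 rose (median -0.23), beside 35.1% lower and 17% higher over all coding genes. Of these subunits 35 had a mean CPM of at least 5. Their share that fell lies within the 38.9% to 47.5% of coding genes above the lowest class of mean CPM. The share that rose lies below that of every such class. PSMB4, of the core particle, had 44.4 and 54.6 CPM under siNC and 19.7 and 21.5 CPM under siMePCE (log2 fold change -1.26, SE 0.118, adjusted p = 1.36e-08), and PSMD2, of the cap, 526 and 663 CPM under siNC and 292 and 298 CPM under siMePCE (log2 fold change -1.01, SE 0.0892, adjusted p = 6.13e-09). Genes of ribosome biogenesis rose in 7 and fell in 11 of 29 (24.1% and 37.9%), near the 17% and 35.1% of all coding genes. POLR1A, the large subunit of RNA polymerase I, had 182 and 195 CPM under siNC and 117 and 108 CPM under siMePCE (log2 fold change -0.75, SE 0.0819, adjusted p = 1.59e-07). Ribosomal protein genes called higher numbered 21 without siNC replicate 1 and 22 without siMePCE replicate 1 and those called lower numbered 7 without siNC replicate 1. Proteasome genes called higher numbered 2 without siNC replicate 2. Ribosome biogenesis genes called higher numbered 3 without siNC replicate 1 and 4 without siMePCE replicate 1. Of the ribosome biogenesis genes, 10 were called higher and 10 lower with the filter at a mean CPM of 1. RPS29 had an overlapping row of 0.981 times its counts, so its rise cannot be assigned to the ribosomal protein gene.

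Most transcripts of the mitochondrial genome rose, and among its messenger RNAs those of complex I had the highest log2 fold changes. Of the 13 messenger RNA genes 12 rose and 1 fell, and of 24 genes for ribosomal and transfer RNAs 19 rose and 0 fell. The genome is read from both strands as long precursors that are cut at the tRNAs. The 7 complex I genes had log2 fold changes from 0.83 to 2.36, MT-CYB of complex III had 0.56, the 3 complex IV genes from -0.28 to 0.46, and the 2 complex V genes 0.28 and 0.29. MT-ND5 had 1952 and 1637 CPM under siNC and 6229.6 and 6289 CPM under siMePCE (log2 fold change 1.80, SE 0.0873, adjusted p = 7.65e-13). MT-ND6, the 1 messenger RNA gene on the light strand, had 373 and 365 CPM under siNC and 1822 and 1974 CPM under siMePCE (log2 fold change 2.36, SE 0.0907, adjusted p = 3.01e-14). MT-CO1 had 11120.00 and 10741 CPM under siNC and 12699 and 14195 CPM under siMePCE (log2 fold change 0.30, SE 0.0716, adjusted p = 0.00191), and MT-CO3 5703 and 6096 CPM under siNC and 4553 and 5161 CPM under siMePCE (log2 fold change -0.28, SE 0.0763, adjusted p = 0.00542). The groups of all 4 of these genes were separate. Counts of opposite strands cannot be told apart here, so MT-ND6 may include RNA of the other strand. Of nuclear genes for respiratory chain subunits 28 fell and 5 rose of 77 (median -0.17), or 36.4% and 6.49% beside 35.1% and 17% over all coding genes, with CYC1, cytochrome c1, at 68 and 77.6 CPM under siNC and 31.1 and 33.8 CPM under siMePCE (log2 fold change -1.17, SE 0.0998, adjusted p = 3.78e-09). Mitochondrial ribosomal protein genes fell in 37 of 78 and rose in 3 (median -0.29). Of the 39 without an overlapping gene of 0.5 or more of their counts, 12 fell and 0 rose (median -0.23). Mitochondrial messenger RNA genes called lower numbered 0 without siMePCE replicate 1. Nuclear respiratory chain genes called higher numbered 3 without siNC replicate 1 or siNC replicate 2 and 2 without siMePCE replicate 1. Mitochondrial ribosomal protein genes called higher numbered 1 without siMePCE replicate 1. MT-CO3 had an overlapping row of 1.54 times its counts. MT-CO1 lost its call without siMePCE replicate 2 (adjusted p = 0.0861). MT-CO3 lost its call with the filter at a mean CPM of 1 and without siMePCE replicate 1 (adjusted p = 0.13 and 0.0956).

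**Figure D5:**
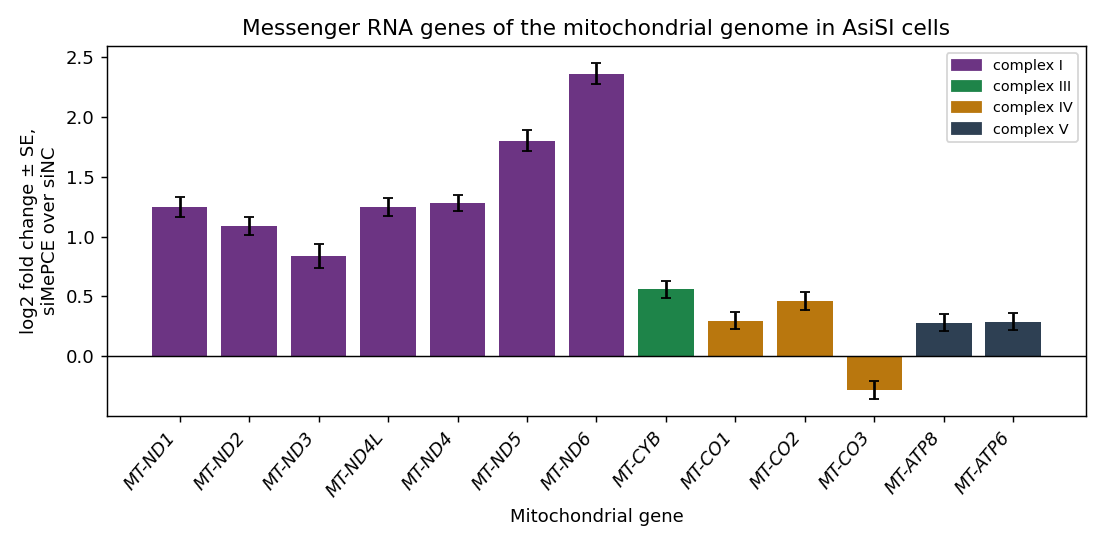
Log2 fold change after siMePCE in AsiSI cells (y axis, error bars are SE) of the 13 messenger RNA genes of the mitochondrial genome (x axis), coloured by the respiratory complex of their protein. The 7 complex I genes all lie at 0.83 or above, and the other 6 lie between -0.28 and 0.56.

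In lipid and sugar metabolism, 15 of 31 cholesterol and SREBP pathway genes fell and 4 rose (median -0.27). FASN, fatty acid synthase, had 282 and 297 CPM under siNC and 106 and 91.6 CPM under siMePCE (log2 fold change -1.55, SE 0.107, adjusted p = 1.85e-10), and ACLY, which supplies acetyl-CoA, had 243 and 249.99 CPM under siNC and 115 and 109.5 CPM under siMePCE (log2 fold change -1.13, SE 0.0877, adjusted p = 8e-10). HMGCS1, an early step of the pathway, rose (350.2 and 271 CPM under siNC and 608 and 514 CPM under siMePCE; log2 fold change 0.85, SE 0.116, adjusted p = 8.39e-06). Glycolysis and hypoxia genes rose in 6 and fell in 10 of 27 (22.2% and 37%), near the 17% and 35.1% of all coding genes. The phosphofructokinase gene PFKL had 18.1 and 19.1 CPM under siNC and 5.9 and 5.54 CPM under siMePCE (log2 fold change -1.70, SE 0.136, adjusted p = 1.27e-09). The hypoxia targets VEGFA and SLC2A3 rose by 0.97 and 0.95, and GAPDH, often used as a reference gene, was at -0.03 (adjusted p = 0.805). Cholesterol pathway genes called higher numbered 1 without siNC replicate 2 or siMePCE replicate 1.

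Of 27 matrix genes 15 (55.6%) fell and 4 rose (median -0.37), beside 35.1% lower and 17% higher over all coding genes. FN1, fibronectin, had 358 and 323 CPM under siNC and 153 and 119 CPM under siMePCE (log2 fold change -1.32, SE 0.0988, adjusted p = 4.86e-10), and COL6A1 and COL6A3, chains of collagen VI, 51.9 and 56.2 CPM under siNC and 22.2 and 19.6 CPM under siMePCE and 97.3 and 94.6 CPM under siNC and 33.4 and 22.8 CPM under siMePCE. Both chains fell, at -1.37 and -1.77 on the log2 scale. Among the proteases and their inhibitors 7 rose and 8 fell of 25. The gelatinase MMP2 had 43.4 and 55.5 CPM under siNC and 169 and 169 CPM under siMePCE (log2 fold change 1.77, SE 0.105, adjusted p = 1.41e-11), and MMP16, a membrane-bound member, 363 and 352 CPM under siNC and 156 and 178 CPM under siMePCE (log2 fold change -1.10, SE 0.0818, adjusted p = 4.52e-10). Of the Wnt pathway 11 fell and 6 rose of 24, with the co-receptor LRP5 at 9.5 and 9.35 CPM under siNC and 2.39 and 3.11 CPM under siMePCE (log2 fold change -1.78, SE 0.178, adjusted p = 4.15e-08) and the receptors FZD1 and FZD7 at -0.84 and -0.84. The transcription factor LEF1 rose (0.59, adjusted p = 0.000248) and CTNNB1, beta-catenin, was not called (0.16, adjusted p = 0.143). In the insulin-like growth factor system 5 of 12 genes fell and 2 rose (41.7% and 16.7%, median -0.03), near the shares of all coding genes. Among those that fell, IRS1, the receptor substrate, had 152 and 164 CPM under siNC and 48.6 and 51.6 CPM under siMePCE (log2 fold change -1.66, SE 0.0876, adjusted p = 2.89e-12). IGFBP4, a binding protein, had 16.3 and 17.4 CPM under siNC and 5.59 and 5.27 CPM under siMePCE (log2 fold change -1.63, SE 0.146, adjusted p = 7.42e-09). Targets of YAP and TGF-beta rose in 7 and fell in 6 of 18. The order turned, to 7 higher and 8 lower, with no count filter, with the replicate number as a block and without siNC replicate 2, and to 5 higher and 6 lower without siMePCE replicate 1. ANKRD1 had 308 and 321 CPM under siNC and 907 and 679 CPM under siMePCE (log2 fold change 1.34, SE 0.116, adjusted p = 2.96e-08), whereas TGFB2 and the receptor kinase AXL fell, at -1.34 and -1.19. Of 22 measured keratins 9 fell and 1 rose. The 1 that rose was KRT17, at 71.8 and 62.5 CPM under siNC and 113 and 102 CPM under siMePCE (log2 fold change 0.68, SE 0.102, adjusted p = 1.34e-05). Matrix proteases and inhibitors called lower numbered 5 without siMePCE replicate 2. Of the matrix proteases and inhibitors, 9 were called higher and 6 lower with the filter at a mean CPM of 1.

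Noncoding RNAs with LINC names rose in 455 and fell in 137 of 1595, beside 18.5% higher and 16.5% lower over all long noncoding genes, with a median of 0.53. The largest rise of the long noncoding genes that passed the naming rule was LINC00604 (0.750 and 0.570 CPM under siNC and 14.1 and 14.4 CPM under siMePCE; log2 fold change 4.43, SE 0.237, adjusted p = 3.23e-12). MTUS1-DT, a transcript divergent from MTUS1, had 1.54 and 1.03 CPM under siNC and 10.9 and 11.3 CPM under siMePCE (log2 fold change 3.12, SE 0.204, adjusted p = 6.92e-11). LINC02646 was among the 5 largest falls of long noncoding genes (39.6 and 45.7 CPM under siNC and 9.73 and 12.7 CPM under siMePCE; log2 fold change -1.93, SE 0.149, adjusted p = 7.95e-10). Of the abundant long noncoding RNAs 7 rose and 4 fell of 18. CASC15 had 14.9 and 13.1 CPM under siNC and 26.6 and 33.4 CPM under siMePCE (log2 fold change 1.10, SE 0.149, adjusted p = 3.24e-06). MALAT1, of nuclear speckles, rose by 1.12, with an overlapping row of 0.999 times its counts, and TUG1 fell, at -0.83. Of 25 SR proteins, hnRNPs and their kinases 13 fell (52%) and 1 rose (4%), beside 35.1% and 17% over all coding genes. PTBP1, a repressor of splicing, had 274 and 287 CPM under siNC and 156 and 133 CPM under siMePCE (log2 fold change -0.96, SE 0.0922, adjusted p = 2.2e-08), and HNRNPA1 was not called (-0.08, adjusted p = 0.438). All 176 snoRNA rows tested have an overlapping row of at least 0.5 of their counts, so the 19 called higher and 1 lower cannot be assigned to the snoRNAs. LINC genes called higher numbered 299 without siMePCE replicate 2. Abundant noncoding RNAs called higher numbered 4 without siNC replicate 2. Splicing regulators called higher numbered 2 without siNC replicate 1 or siMePCE replicate 2 and 0 without siNC replicate 2 or siMePCE replicate 1 and those called lower numbered 8 without siMePCE replicate 2. SnoRNA rows called higher numbered 10 without siNC replicate 1 or siMePCE replicate 1 and those called lower numbered 0 without siNC replicate 1 or siMePCE replicate 2 and 6 without siMePCE replicate 1. HNRNPA1 had an overlapping row of 1.07 times its counts.

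Genes with an AsiSI site at their promoter were read next, since both groups carried the enzyme with 4-OHT. The recognition sequence GCGATCGC stood in 73 of 35116 promoter windows, of 70 genes, and 59 of these genes were tested. After siMePCE 8 of them (13.6%) rose and 19 (32.2%) fell, with a median log2 fold change of -0.12. The other 16396 tested genes of the table had 17.4% higher, 32.6% lower and a median of -0.10, which are close to the values of the genes with a site. A site in the window does not show that it was cut, since AsiSI does not cut methylated sites, and sites elsewhere in the genes were not analysed here. The 5 called genes with the smallest adjusted p are shown with the site in capitals.
USP22 (chr17:21042977-21043004, minus strand): cctcccctcgGCGATCGCgcagccccat
CCNB1 (chr5:69167013-69167040, plus strand): acgccttcgcGCGATCGCcctggaaacg
CPEB2 (chr4:15002489-15002516, plus strand): ggcggcggcgGCGATCGCcgcgaggggt
AGA (chr4:177442411-177442438, minus strand): taattgttcgGCGATCGCtggctgccgg
CPEB3 (chr10:92291247-92291274, minus strand): cggggaggcgGCGATCGCggcccgggtt

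USP22, a deubiquitinase of the SAGA complex, had 279 and 297 CPM under siNC and 130.2 and 124 CPM under siMePCE (log2 fold change -1.18, SE 0.0807, adjusted p = 1.33e-10). AGA, a lysosomal amidase, had 7.46 and 6.92 CPM under siNC and 2.3 and 2.21 CPM under siMePCE (log2 fold change -1.67, SE 0.199, adjusted p = 5.04e-07). CPEB2 and CPEB3, which bind cytoplasmic polyadenylation elements, rose, CPEB2 from 43.5 and 52.8 to 83.5 and 86.3 CPM (log2 fold change 0.82, SE 0.0966, adjusted p = 4.64e-07) and CPEB3 from 27.1 and 26.5 to 48.6 and 46.4 CPM (log2 fold change 0.82, SE 0.0987, adjusted p = 5.52e-07). Overlapping genes held 1.46 and 1.17 times the counts of USP22 and CPEB2. In Flp-In cells, for which no 4-OHT is stated, the log2 fold changes of USP22, CCNB1 and AGA were -1.09, -1.14 and -1.85, and none of these was called by the test of the difference (adjusted p = 0.765, 0.894 and 0.809). CPEB2 rose by more in Flp-In, with a log2 fold change of 2.17 and a difference of -1.35 (SE 0.138, adjusted p = 4.92e-06), and CPEB3 rose by more in AsiSI, with a difference of 0.52 (adjusted p = 0.0317). Of all 59 tested genes with a site, 11 were called by the test of the difference. The same test called 4.41% of all genes and 6.61% of coding genes. Whether the site had a part in these differences was not tested.

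The response of AsiSI cells differed from that of Flp-In cells for 1912 of 43321 genes (4.41%) by the test of the difference, and for 6.61% of coding genes. Leaving out 1 Flp-In library brought the count to 733 (siNC replicate 1), 1082 (siNC replicate 2) or 1072 (siMePCE replicate 1). The effects of line and drug cannot be told apart here. FAP, a membrane protease of activated fibroblasts, had 51.2 and 31.4 CPM under siNC and 97.9 and 88 CPM under siMePCE (log2 fold change 1.17, SE 0.156, adjusted p = 7.47e-06), and its log2 fold change in Flp-In was 2.72, a difference of -1.54 (SE 0.278, adjusted p = 0.00315). ADAMTS1, a secreted protease, had 16.7 and 22.2 CPM under siNC and 13.9 and 13.9 CPM under siMePCE (log2 fold change -0.48, SE 0.182, adjusted p = 0.041), against 1.44 in Flp-In and a difference of -1.92 (adjusted p = 0.000475). GAS1 had -0.94 in Flp-In and -2.66 in AsiSI, a difference of -1.72 (adjusted p = 0.00315). MYC, the growth-promoting transcription factor, fell in AsiSI (172 and 189 CPM under siNC and 138 and 134 CPM under siMePCE; log2 fold change -0.41, SE 0.0824, adjusted p = 0.000353) and had 1.15 in Flp-In (difference -1.56, adjusted p = 1.12e-07). In the other direction, MPP7, a polarity scaffold, had 97.9 and 93.5 CPM under siNC and 207 and 192 CPM under siMePCE (log2 fold change 1.06, SE 0.0836, adjusted p = 1.11e-09) against -1.02 in Flp-In (difference 2.07, adjusted p = 1.11e-09). COL3A1, PPP1R1C, ADAM18 and SPATA16 had differences of 2.64, 2.72, 2.26 and 2.00, with -1.93, -0.05, 1.25 and 0.51 in Flp-In and 0.71, 2.68, 3.51 and 2.51 in AsiSI. ESR1, the estrogen receptor gene, part of which the AsiSI-ER fusion carries, had 58.7 and 58.9 unscaled CPM under siNC and 107 and 114 under siMePCE in AsiSI, and between 9.58 and 13.6 in the 4 Flp-In libraries. SYNE1 overlaps ESR1 and held 4.55 times its counts, and reads of the fusion cannot be told apart from those of the gene in these counts. ADAMTS1 lost its call with DESeq2 size factors, with the filter at a mean CPM of 1, without siNC replicate 2, without siMePCE replicate 1, without siMePCE replicate 2 and in DESeq2 (adjusted p = 0.0528, 0.118, 0.394, 0.0928, 0.106 and 0.0704).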

How the data were processed

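The deposited file holds raw read counts per gene for 8 libraries (4 groups of 2). Per the labels' protocols ribosomal RNA was removed and a directional kit made the libraries. Per the submitters' processing notes the authors used Trim Galore, FastQC, STAR, SAMtools and featureCounts with hg19, and versions and counting settings are not given in the sources used here. Each row is 1 interval from gene start to end, introns included, in 80311 of 80311 rows. A row nested in another of either strand never had more counts than its host (3458 of 3458 pairs on the same strand, 6861 of 6861 on opposite strands), so reads of overlapping genes appear to be counted for both, and antisense genes cannot be told apart.

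A model with 4 group means was fitted to all 8 libraries in edgeR 4.0.16 (R 4.3.3): filterByExpr, TMM scaling, quasi-likelihood test with the robust option, Benjamini-Hochberg adjustment, called under 0.05. The library totals of the 4 AsiSI libraries lay between 44000840 and 53695626 counts. Symbols matched 74.3% of rows, with 94.5% of counts, and 77.8% of tested coding genes had a promoter window, so motif shares are given only for lists with at least 80% of their genes matched. The test was checked on simulated counts for the AsiSI contrast. Of changes of 1.5-, 2- and 4-fold set into them, 22.1%, 34.4% and 72.1% were recovered, and 3.37% of the calls were false. Far fewer genes were changed there than were called in the data. A gene that was not called may still have changed. Alternatives were DESeq2 1.42.0 as test and as scaling, other count filters, abundant RNA rows removed, the AsiSI libraries alone, a replicate block, a 1.5-fold threshold, no robust option and each library left out.

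The comparison and the gene lists were chosen with earlier results of these data known. Genes were named by rule: the 15 largest rises and falls of coding genes and 5 of long noncoding genes (called, mean CPM of at least 5, groups apart, no overlapping gene of 0.5 or more of the counts), up to 5 called members of each list by smallest adjusted p with up to 2 that moved against the rest, the 5 called AsiSI-site genes with the smallest adjusted p, and the 5 largest differences between the lines in each direction. Other genes given were chosen after their values were seen. Overlap values are the counts of the highest overlapping row divided by those of the gene. SE, in the text and figures, is the absolute log2 fold change divided by the square root of the F statistic of the quasi-likelihood test. It was worked back from that test and not estimated separately. Some genes are not reported here.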

Additional observations from a re-analysis of the deposited data

Results flagged for a closer look

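The effect of siMePCE on these genes differed between AsiSI and Flp-In cells by the test of the difference itself (edgeR quasi-likelihood test, adjusted p under 0.05). The 2 line contrasts share no libraries, and the line is confounded with the drug in them. Over all genes 1912 differed. When 1 Flp-In library was left out, that count was 733 (siNC replicate 1), 1082 (siNC replicate 2) or 1072 (siMePCE replicate 1).

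Of the genes given with values in the report, 37 differed. A positive value means that the log2 fold change was higher in AsiSI than in Flp-In. For 20 of them the call of the difference held without each of the 8 libraries in turn. The positive differences among these were 2.72 for PPP1R1C, 2.64 for COL3A1, 2.26 for ADAM18, 2.07 for MPP7, 1.5 for LINC02646, 1.39 for MTUS1-DT, 1.22 for GCNA, 1.15 for ESR1, 1.07 for KRT17, 1.06 for EGR1, 0.74 for RAD51B, 0.67 for MAGI2 and 0.54 for MT-CO3. The negative ones were -1.92 for ADAMTS1, -1.72 for GAS1, -1.56 for MYC, -1.54 for FAP, -1.35 for CPEB2, -1.11 for LEF1 and -0.99 for ASNS.

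For the other 17 the call was lost without at least 1 of the 8 libraries. Their positive differences were 2.00 for SPATA16, 1.63 for HSPA1A, 0.99 for NR4A2, 0.89 for DKK2, 0.80 for COL6A3, 0.52 for CPEB3, 0.48 for RB1 and 0.47 for TENM2, and their negative ones -1.27 for H2BC13, -0.79 for H2BC14, -0.54 for PTBP1, -0.53 for BLM, -0.50 for CCND1, -0.46 for POLR2A, -0.45 for ACLY, -0.45 for IRS1 and -0.41 for SSRP1.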

How the results depend on the processing

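The counts of called genes kept within 1.5 times of 7273 higher and 9258 lower under DESeq2 as test (6852 and 8495), the other scaling, the other filters, the removal of abundant RNA rows, the AsiSI libraries alone and the fit with no robust option. With 1 AsiSI library left out, 5221 to 6275 genes were called higher and 7551 to 8959 lower, and the difference between lines was called for 1506 to 1922 genes. Left out in turn, the Flp-In libraries gave counts of 733 to 1376 for that difference, an alternative added after the data were seen, like the fit with no robust option. Tested against a 1.5-fold change, 2676 genes were higher, 3488 lower and 186 different between lines. Of the 116 counts of list members, 96 moved by over 1.5 times at that threshold, 29 with the filter at a mean CPM of 1, and between 1 and 23 under each other alternative. That filter moved the median log2 fold change of all genes by 0.131, the DESeq2 scaling by 0.029, and the order of higher and lower turned or was lost for 7 of the lists given with counts in the text. The labels number the libraries 1 and 2 in each group, and with that number as a replicate block 7630 genes were higher, 9639 lower and 2437 different, and the YAP and TGF-beta targets turned to 7 higher and 8 lower. The numbers were not read as pairs in the main fit, because the labels do not say that a number marks a shared culture or day. The deviations of same-numbered libraries correlated at 0.209 in AsiSI and -0.00214 in Flp-In over 16950 genes, which does not settle whether they are pairs. Of 3536 recomputed values of single genes (fold changes and differences between lines over all alternatives), 193 lost their call and 11 gained one. A change of sign was counted only where the main fit or the alternative called the value, and 0 such changes were found. With 2 libraries a group, genes of low counts are limited most.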

Other observations

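Of 6 estrogen receptors and targets, read because 4-OHT binds estrogen receptors and was given to both AsiSI groups, 3 rose and 2 fell, and 1 and 1 of the 3 without an overlapping gene of 0.5 or more of their counts. CA12, a carbonic anhydrase, had 18.3 and 17.6 CPM under siNC and 4.64 and 5.95 CPM under siMePCE (log2 fold change -1.76, SE 0.159, adjusted p = 8.01e-09), and PDZK1, a scaffold of membrane transporters, rose (0.80, adjusted p = 0.00112). In the MYC and MAX network 5 of 13 fell and 3 rose (38.5% and 23.1%), near the 35.1% and 17% of all coding genes. MLXIP (MondoA), a partner of MLX in glucose sensing, had 49 and 65.6 CPM under siNC and 17 and 17 CPM under siMePCE (log2 fold change -1.76, SE 0.122, adjusted p = 1.62e-10), and MXI1, a MAX-binding repressor, rose (0.52, adjusted p = 0.000345). Both siMePCE libraries of MLXIP lay far below both siNC libraries. With the filter at a mean CPM of 1 this network divided into 5 higher and 5 lower. PDZK1 lost its call without siMePCE replicate 1 (adjusted p = 0.0576).

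Zinc finger genes with ZNF names, the largest family of transcription factors, rose in 87 and fell in 110 of 448, beside 17% higher and 35.1% lower over all coding genes. ZNF623 had 29.1 and 29 CPM under siNC and 11.3 and 9.86 CPM under siMePCE (log2 fold change -1.46, SE 0.125, adjusted p = 4.04e-09), and ZNF267 had 29.4 and 24.8 CPM under siNC and 61.6 and 57.2 CPM under siMePCE (log2 fold change 1.13, SE 0.104, adjusted p = 1.08e-08). With the filter at a mean CPM of 1 the order turned, to 120 higher and 86 lower. Of 35 HOX genes, which set position along the body axis, 5 rose and 6 fell, against 8 and 6 with that filter, and of the 5 without an overlapping gene of 0.5 or more of their counts 1 rose and 0 fell. Of the 3 metallothioneins tested, small metal-binding proteins, 2 fell, MT1E with 89.1 and 97.7 CPM under siNC and 48.7 and 42.1 CPM under siMePCE (log2 fold change -1.04, SE 0.101, adjusted p = 2.39e-08).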
